A study of Mus musculus with 30 samples.

Results

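The Hox genes encode homeodomain transcription factors that lie in 4 clusters in the mouse genome. All 39 coding Hox genes were taken by their symbol (Hoxa, Hoxb, Hoxc or Hoxd followed by a number), of 48440 genes in the count table, so that the symbol alone fixed the members. RNA was measured in 30 subcutaneous tumors grown from 5 tumor cell lines, each of which came from 1 primary fibrosarcoma induced with the carcinogen methylcholanthrene (MCA) in the right flank. The lines were MCA-943 (4 tumors), MCA-948 (8), MCA-969 (8), MCA-970 (6) and MCA-972 (4). The study classes MCA-943 and MCA-969 as non-sensitive to NK1.1+ cells and MCA-948, MCA-970 and MCA-972 as sensitive. For all 30 tumors the labels give a C57BL/6 genetic background and growth in C57BL/6 mice. The strain label was Ncr1Cre for the MCA-943 tumors and Ncr1Cre R26DTA for the tumors of the other lines. In R26DTA mice, Ncr1-driven Cre turns on diphtheria toxin A in NKp46+ cells and so removes them. The labels do not say whether the strain belongs to the host or to the mouse in which the primary tumor arose, so the genotype of the host of each tumor is open. Because each line is 1 primary tumor, p-values between lines measure the spread between transplanted tumors and not the spread between primary tumors of a kind.

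Hox genes are numbered 1 to 13 by sequence family, and genes with the same number in different clusters are paralogs. In the embryo, genes at the 3′ end of a cluster (low numbers) are switched on early and reach far forward, and genes at the 5′ end (high numbers) are switched on later and mark more posterior positions and the ends of the limbs. Fibroblasts of the adult keep much of this code, so that their Hox pattern reflects the part of the body they came from. Polycomb proteins keep silent Hox genes off, Trithorax proteins keep active ones on, and Pbx, Meis and Pknox proteins bind DNA together with Hox proteins. The HoxA cluster (11 genes) spanned 105 kb of chr6:52155590-52260880 in GRCm38. HoxB (10 genes) lay on chr11:96194316-96368256, HoxC (9 genes) on chr15:102921103-103036852 and HoxD (9 genes) on chr2:74668310-74765142. Totals ran from 27745104 to 46537062 counts per tumor. A level below is the TMM-normalized CPM per kilobase of exon, which allows genes of different length to be set side by side.

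The promoters of 5 genes are shown because these genes are examples of the patterns described below and have 1 start site each in the RefSeq table. They run from 250 bases before to 50 bases after the start (GRCm38.p6, 5′ to 3′ on the strand of the gene), with each CG dinucleotide in capitals. Hoxa7 and Hoxa9 are neighbors that went different ways in MCA-943, Hoxb4 belongs to a block that was high in 3 lines, Hoxc4 was highest in MCA-943, and Hoxd8 was expressed in all 30 tumors.
Hoxa7, chr6:52218524-52218823, minus strand: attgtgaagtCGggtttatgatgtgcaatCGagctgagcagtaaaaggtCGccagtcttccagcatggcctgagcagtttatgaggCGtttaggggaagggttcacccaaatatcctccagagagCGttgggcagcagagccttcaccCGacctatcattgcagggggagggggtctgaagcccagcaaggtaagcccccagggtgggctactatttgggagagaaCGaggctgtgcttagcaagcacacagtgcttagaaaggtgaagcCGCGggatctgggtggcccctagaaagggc
Hoxa9, chr6:52227321-52227620, minus strand: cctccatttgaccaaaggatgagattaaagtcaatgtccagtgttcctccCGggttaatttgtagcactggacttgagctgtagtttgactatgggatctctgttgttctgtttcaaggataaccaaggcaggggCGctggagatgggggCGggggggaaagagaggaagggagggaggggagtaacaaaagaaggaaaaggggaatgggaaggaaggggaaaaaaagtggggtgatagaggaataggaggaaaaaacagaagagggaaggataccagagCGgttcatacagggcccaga
Hoxb4, chr11:96318017-96318316, plus strand: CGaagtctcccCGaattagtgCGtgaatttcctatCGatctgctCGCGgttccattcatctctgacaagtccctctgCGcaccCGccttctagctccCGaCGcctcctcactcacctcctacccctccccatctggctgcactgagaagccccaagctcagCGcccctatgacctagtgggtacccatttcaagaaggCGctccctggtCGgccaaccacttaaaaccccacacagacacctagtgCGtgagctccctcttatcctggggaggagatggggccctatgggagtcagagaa
Hoxc4, chr15:103034145-103034444, plus strand: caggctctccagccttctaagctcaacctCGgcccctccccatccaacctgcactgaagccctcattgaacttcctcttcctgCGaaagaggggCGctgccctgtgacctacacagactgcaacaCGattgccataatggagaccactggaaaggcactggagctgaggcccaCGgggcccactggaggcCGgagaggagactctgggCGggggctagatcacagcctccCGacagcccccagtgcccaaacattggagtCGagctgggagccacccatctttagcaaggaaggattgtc
Hoxd8, chr2:74704365-74704664, plus strand: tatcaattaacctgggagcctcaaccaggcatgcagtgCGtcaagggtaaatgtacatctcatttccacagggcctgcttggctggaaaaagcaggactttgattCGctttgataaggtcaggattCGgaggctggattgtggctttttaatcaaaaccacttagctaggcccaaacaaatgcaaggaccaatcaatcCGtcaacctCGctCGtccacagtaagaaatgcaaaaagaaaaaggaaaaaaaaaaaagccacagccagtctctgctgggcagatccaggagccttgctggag

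Promoters were listed for 22 of the 39 Hox genes. These held a median of 13.5 CG dinucleotides in 300 bases (4 to 45), against a median of 7 over 27025 promoters. The 5 promoters above hold 9 (Hoxa7), 4 (Hoxa9), 14 (Hoxb4), 9 (Hoxc4) and 6 (Hoxd8). The motif TATAAA, read on both strands, was in 3 of the 22 and in 14.2% of all promoters. CCAAT was in 14 of the 22 and in 37.9% of all. TGATTNAT, a form of the joint Pbx and Hox recognition sequence, was in 1 of the 22 (Hoxa2) and in 3.36% of all. These are counts of letters in short windows and say nothing of binding in these tumors.

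The 5 lines differed in which clusters were active. A gene was counted as expressed in a line when its level was at least 1 in every tumor of that line. By this rule 20 of the 39 Hox genes were expressed in MCA-970, 16 in MCA-969, 14 in MCA-948, 10 in MCA-943 and 6 in MCA-972. Of all 48440 genes, 22%, 21.6%, 20.8%, 22.7% and 22.4% met the rule in the same lines. The rule asks more of a line with more tumors. By a line mean of at least 1 instead, 21 Hox genes passed in MCA-970, 21 in MCA-969, 14 in MCA-948, 10 in MCA-943 and 6 in MCA-972. HoxC and HoxD were active in all 5 lines, HoxA was expressed in MCA-943, MCA-969 and MCA-970 only, and HoxB in MCA-948, MCA-969 and MCA-970 only. In bulk samples, fewer expressing cells and less RNA per cell cannot be told apart. With a level of at least 2 in place of 1, MCA-948 had 9 expressed genes.

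**Figure D1:**
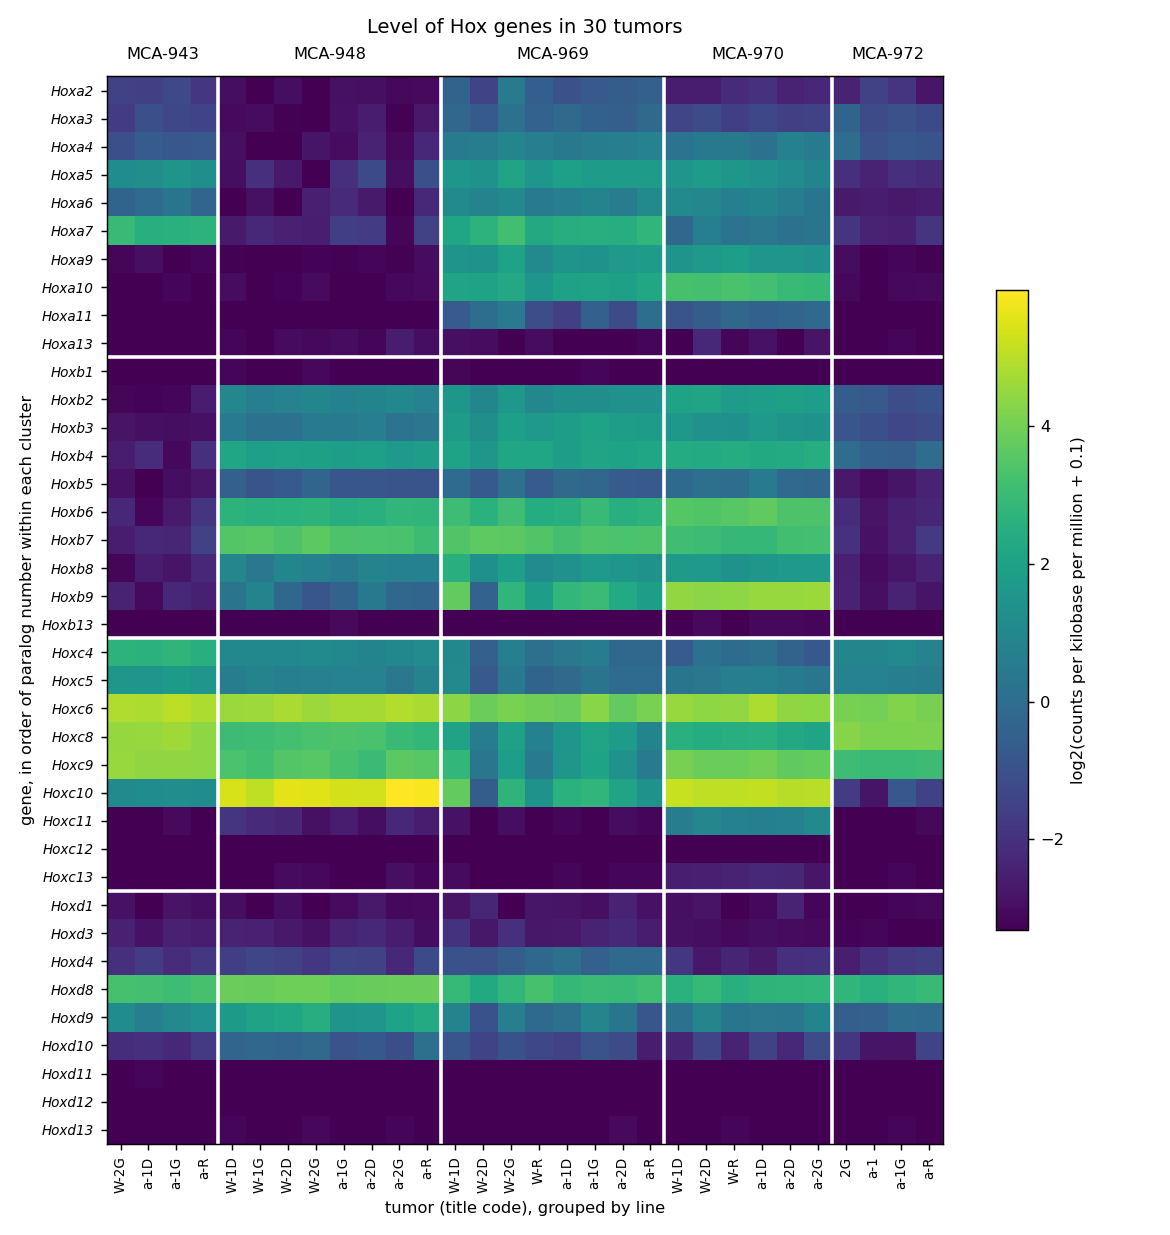
Level of Hox genes (rows, by cluster and paralog number) in the 30 tumors (columns, by line and title code), as log2 of CPM per kilobase plus 0.1. HoxA is dark in MCA-948 and dark beyond Hoxa4 in MCA-972, HoxB is dark in MCA-943, and Hoxc6 and Hoxd8 are bright in every tumor.

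Only 4 genes were expressed in all 5 lines, and all lie in the middle of their clusters: Hoxc6, Hoxc8, Hoxc9 and Hoxd8. Hoxc5 was expressed in 4 lines. Hoxa5, Hoxb2, Hoxb3, Hoxb4, Hoxb6, Hoxb7, Hoxb8, Hoxc4, Hoxc10 and Hoxd9 were expressed in 3, Hoxa4, Hoxa6, Hoxa7, Hoxa9 and Hoxa10 in 2, and Hoxb9 and Hoxc11 in 1. In MCA-969, Hoxb9 and Hoxc10 missed the rule through the tumor W-2D alone. The other 17 genes met the rule in no line. Of these, Hoxb1, Hoxb13, Hoxc12, Hoxd11, Hoxd12 and Hoxd13 had at most 3 counts in each tumor of each line, and Hoxc12 and Hoxd12 had 0 counts in all 30 tumors. A count of 0 allows up to 3 counts, which is 0.0792 to 0.0908 CPM by line. The genes of group 13, which mark the hindmost and outermost parts of the embryo, thus stayed at or near background. The highest was Hoxc13, at 0.082 ± 0.0219 (SD, n = 6) in MCA-970, where its counts were 5 to 9.

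**Figure D2:**
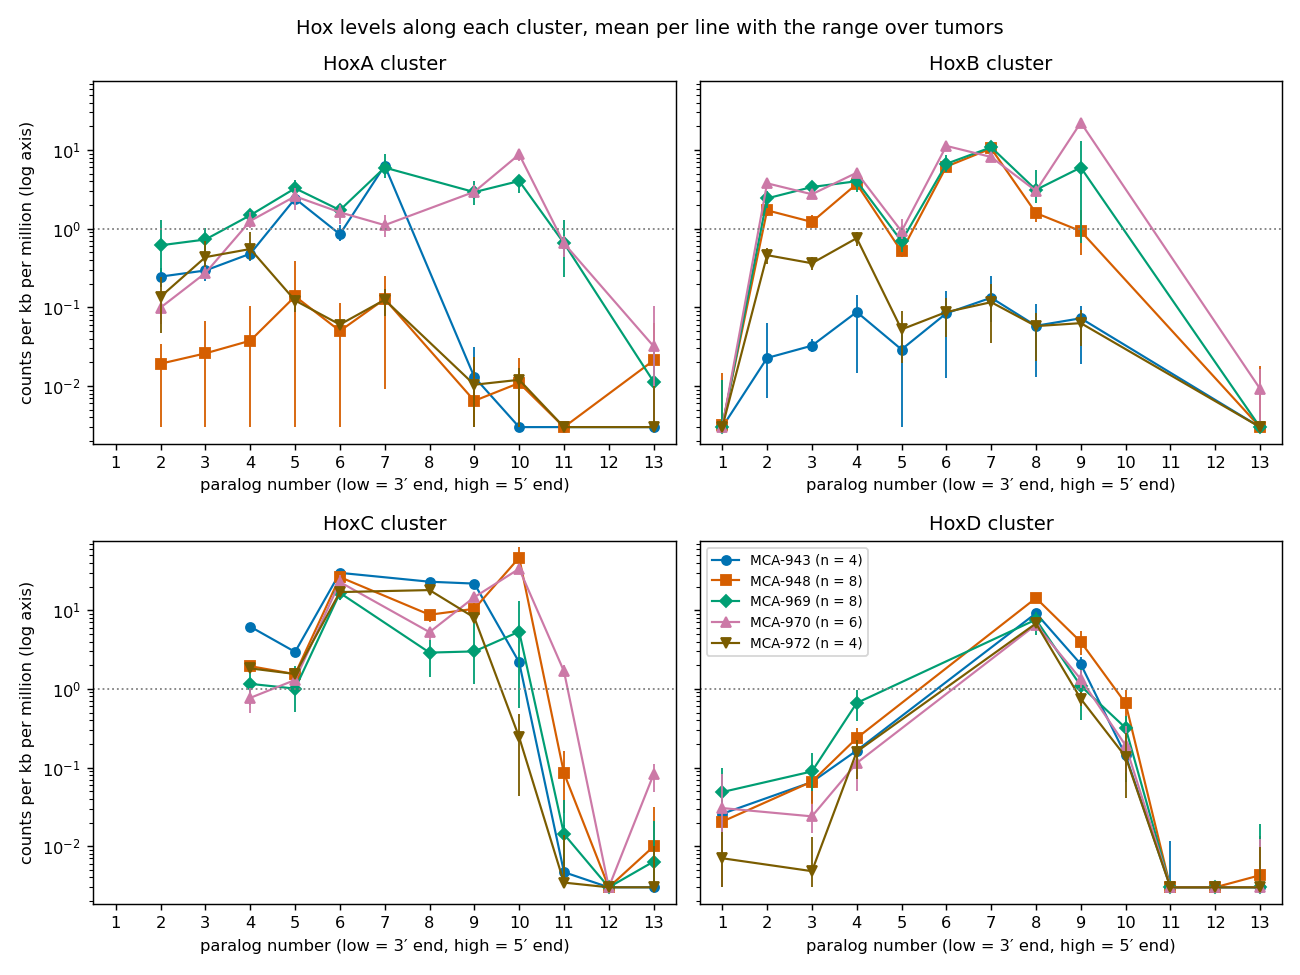
Mean level of Hox genes by line along the 4 clusters (log axis, in CPM per kilobase, with values under 0.003 drawn at 0.003), with vertical lines for the range over the tumors of a line and a dotted line at 1. HoxD is highest at Hoxd8 in all lines. HoxC is highest at Hoxc6 in MCA-943 and MCA-969, at Hoxc8 in MCA-972 and at Hoxc10 in MCA-948 and MCA-970. Both fall at the 5′ end in all lines, while HoxA and HoxB are split between lines.

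HoxA held a break along the cluster. Hoxa5, which takes part in patterning the neck, chest and lung, had levels of 2.41 ± 0.204 in MCA-943 (n = 4), 3.26 ± 0.516 in MCA-969 (n = 8) and 2.58 ± 0.576 in MCA-970 (SD, n = 6), against 0.138 ± 0.145 in MCA-948 and 0.122 ± 0.0255 in MCA-972. Hoxa9, a gene of the trunk and the upper limb that is also known from leukemia, was at 2.91 ± 0.634 in MCA-969 and 2.94 ± 0.378 in MCA-970. In MCA-943 its level was 0.0121, 0.0309, 0 and 0.00878 in the 4 tumors, and its means were 0.00647 in MCA-948 and 0.0104 in MCA-972. Hoxa4 was at 1.48 ± 0.158 in MCA-969, 1.25 ± 0.211 in MCA-970 and 0.480 ± 0.0735 in MCA-943. Hoxa6 was at 1.72 ± 0.315 in MCA-969, 1.61 ± 0.323 in MCA-970, 0.849 ± 0.194 in MCA-943, 0.0604 ± 0.00344 in MCA-972 and 0.05 ± 0.0488 in MCA-948. The active stretch of HoxA in MCA-943 therefore ended with Hoxa7, while it ran on to Hoxa10 in MCA-969 and MCA-970. Hoxa9 fell by 7.62 on the log2 scale in MCA-943 against MCA-969 (SE 0.42) and by 7.64 against MCA-970 (SE 0.42). It passed the filter on low counts through lines where it was high, so no p-value is given for these differences. P-values of other genes against a line where they were off carry the same limit.

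Hoxa10, which acts in limb and uterus, was expressed in MCA-970 at 8.79 ± 1.05 (SD, n = 6) and in MCA-969 at 4.04 ± 0.581 (n = 8), and gave 0 to 3 counts per tumor elsewhere (means of 0.00289 in MCA-943, 0.0109 in MCA-948 and 0.012 in MCA-972). It was lower in MCA-969 than in MCA-970 (log2 fold change -1.12, SE 0.17; edgeR adjusted p = 1.3e-06). The ranges of 2.87 to 4.77 and 7.20 to 9.90 did not overlap. Hoxa11, a gene of the forearm and the uterus, had 0 counts in all tumors of MCA-943, MCA-948 and MCA-972. Its level of 0.653 ± 0.358 in MCA-969 and 0.651 ± 0.138 in MCA-970 was at least 16.4-fold higher than the limit of 3 counts per library in MCA-943. No difference in Hoxa11 between MCA-969 and MCA-970 was detectable (log2 fold change 0.00, SE 0.33; adjusted p = 0.996).

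Hoxa7 was the member that followed the classes of the study. Its level was 7.56, 5.54, 5.90 and 6.38 in the 4 tumors of MCA-943, and 4.42 to 8.94 in the 8 tumors of MCA-969. It was 0.787 to 1.51 in the 6 tumors of MCA-970, 0.00906 to 0.25 in MCA-948, and 0.172, 0.0854, 0.0765 and 0.165 in MCA-972. The 12 tumors of the non-sensitive lines were all higher than the 18 of the sensitive lines. Hoxa7 was higher in MCA-943 than in MCA-948, MCA-970 and MCA-972 by 5.62, 2.52 and 5.66 on the log2 scale (SE 0.32, 0.30 and 0.43; edgeR adjusted p = 4.17e-15, 4e-08 and 6.56e-12). In MCA-969 it was higher by 5.53, 2.43 and 5.58 (SE 0.30, 0.28 and 0.41; adjusted p = 3.55e-15, 1.43e-08 and 5.06e-12). Setting each non-sensitive line against each sensitive one gives 6 comparisons, and Hoxa7 was the only Hox gene called higher in all of them, as were 0.652% of all genes tested. By edgeR 0 Hox genes were lower in all 6 (0.225% of all genes), as by DESeq2 and limma-voom. The classes rest on 2 lines against 3. The difference between MCA-943 and MCA-969 in Hoxa7 did not pass the test (log2 fold change 0.09, SE 0.28; adjusted p = 0.81). Without the MCA-972 tumor a-1, Hoxa2, which patterns the hindbrain and face, was called as well, so that 2 Hox genes then followed the classes.

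The 3′ end of HoxA separated both lines in which no gene of this cluster met the rule for expression. Hoxa4 was at 0.551 ± 0.234 in MCA-972 and at 0.0377 ± 0.0375 in MCA-948. Hoxa2, Hoxa3 and Hoxa4 were all lower in MCA-948 than in MCA-972, with log2 fold changes of -2.63 (Hoxa2, SE 0.49; adjusted p = 3.12e-05), -4.03 (Hoxa3, SE 0.39; adjusted p = 4.02e-10) and -3.85 (Hoxa4, SE 0.36; adjusted p = 2.37e-10). From Hoxa5 on the lines did not separate. The log2 differences were 0.15 for Hoxa5 (SE 0.51; adjusted p = 0.82), -0.26 for Hoxa6 (SE 0.55; adjusted p = 0.73) and 0.05 for Hoxa7 (SE 0.41; adjusted p = 0.93). The whole HoxA cluster gave 16 to 82 counts per tumor in MCA-948 and 192 to 333 in MCA-972, where Hoxa3 gave 399 over the 4 tumors.

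In MCA-948 the small remainder of HoxA moved with endothelial markers. The tumors a-1G, a-2D and a-R had summed HoxA levels of 0.679 to 1.04 and summed endothelial markers (Pecam1, Cdh5, Kdr, Tek and Emcn) of 173 to 313 CPM. The other 5 tumors had HoxA levels of 0.212 to 0.340 and endothelial markers of 15.7 to 94.1 CPM. This grouping was made after the values were seen, and the part of host vessels in the remainder was not tested.

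HoxB was expressed as a block. Hoxb2, Hoxb3, Hoxb4, Hoxb6, Hoxb7 and Hoxb8 were expressed together in MCA-948, MCA-969 and MCA-970, and no HoxB gene was expressed in MCA-943 or MCA-972. Hoxb7, which is known from breast and skin tumors, was the highest gene of the cluster in MCA-948 (10.5 ± 1.23, n = 8) and in MCA-969 (10.8 ± 1.11, n = 8), and stood at 8.15 ± 0.759 in MCA-970 (SD, n = 6). In MCA-943 it was 0.0658 to 0.254 and in MCA-972 0.0354 to 0.198, so that the groups did not overlap. Hoxb7 fell by 6.21 on the log2 scale in MCA-943 against MCA-948 (SE 0.25). It passed the filter on low counts through lines where it was high, so no p-value is given for this difference. For MCA-969 over MCA-948 the log2 fold change was 0.05 for Hoxb7 (SE 0.13; adjusted p = 0.75) and 0.12 for Hoxb6 (SE 0.14; adjusted p = 0.49), and neither passed the test. Hoxb6 was higher in MCA-970 (11.3 ± 1.04) than in MCA-948 (6.16 ± 0.447) and MCA-969 (6.67 ± 1.32), with differences under 1 on the log2 scale.

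Hoxb2, which acts in the hindbrain, was at 1.71 ± 0.151 in MCA-948, 2.43 ± 0.417 in MCA-969 and 3.77 ± 0.337 in MCA-970, the highest of the 5 lines. Hoxb3 was at 1.22 ± 0.175, 3.38 ± 0.499 and 2.74 ± 0.258 in the same lines, and Hoxb4, known for its part in blood stem cells, at 3.71 ± 0.359, 4.01 ± 0.517 and 5.14 ± 0.197. Hoxb8 was at 1.58 ± 0.228, 3.12 ± 1.11 and 3.02 ± 0.209, against 0.0582 ± 0.0416 in MCA-943 and 0.0577 ± 0.0299 in MCA-972. Hoxb6 had 0.0840 ± 0.0640 and 0.0871 ± 0.0385 in the latter. Hoxb5 sat below its neighbors in each of these lines, with 0.513 ± 0.105 in MCA-948, 0.693 ± 0.196 in MCA-969 and 0.926 ± 0.214 in MCA-970. Where the cluster met the rule nowhere, its 3′ genes again divided the lines. Hoxb2, Hoxb3 and Hoxb4 were at 0.460 ± 0.0971, 0.363 ± 0.0615 and 0.758 ± 0.155 in MCA-972 (SD, n = 4) but at 0.0227 ± 0.0270, 0.0325 ± 0.0059 and 0.0872 ± 0.0585 in MCA-943 (n = 4). In MCA-943 against MCA-972 Hoxb2 fell by 4.17, Hoxb3 fell by 3.45 and Hoxb4 fell by 3.0 on the log2 scale (SE 0.32, 0.21 and 0.25; largest adjusted p = 3.84e-11). Hoxb6 did not separate these lines (log2 fold change -0.04, SE 0.40; adjusted p = 0.96). Of the exon bases of Hoxb3 47.1% are free of overlap with other annotated genes, so its level can hold reads of overlapping transcripts.

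**Figure D3:**
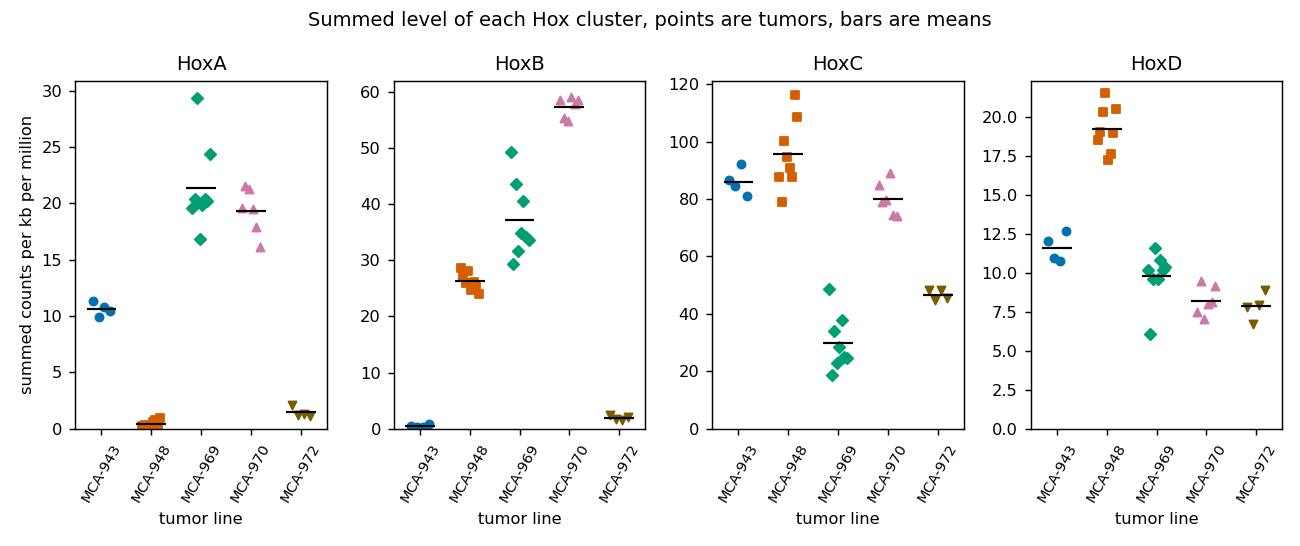
Summed level of each cluster (CPM per kilobase) in each tumor, by line, with bars at the line means. HoxA sums to 0.489 in MCA-948 and 22.3 in MCA-969, and HoxB to 0.519 in MCA-943 and 57.3 in MCA-970.

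At the 5′ end of HoxB, Hoxb9, a gene of the posterior chest, was at 20.5 to 23.8 in the 6 tumors of MCA-970 and at 0.661 to 13.2 in the 8 tumors of MCA-969. It was at 0.460 to 1.75 in MCA-948, 0.0318 to 0.0911 in MCA-972 and 0.0192 to 0.103 in MCA-943. No tumor of another line reached the level of MCA-970, and the MCA-969 tumors overlapped those of MCA-948. In MCA-948 against MCA-970 Hoxb9 fell by 4.58 on the log2 scale (SE 0.38; edgeR adjusted p = 1.4e-11). MCA-969 exceeded MCA-948 by 2.69 (SE 0.34; adjusted p = 1.1e-07) and fell by 1.90 against MCA-970 (SE 0.34; adjusted p = 2.1e-05). MCA-943 and MCA-972 did not pass this test (log2 fold change 0.11, SE 0.97; adjusted p = 0.94).

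HoxC was the largest contributor in 4 of the lines. It gave 78.7% of the summed Hox level in MCA-943, 67.5% in MCA-948, 48.3% in MCA-970 and 79.3% in MCA-972, but 30.2% in MCA-969, where HoxB gave 37.4%. Hoxc6, a gene of the chest, was the steadiest member. Its level was 29.9 ± 2.30 in MCA-943, 26.4 ± 2.15 in MCA-948, 16.6 ± 2.59 in MCA-969, 22.8 ± 2.69 in MCA-970 and 17 ± 1.03 in MCA-972 (SD). It was the only tested Hox gene that was called in none of the 10 pairs of lines, since no difference reached 1 on the log2 scale. The largest was 0.85 between MCA-943 and MCA-969 (SE 0.09; adjusted p = 8.5e-09).

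Genes on both sides of Hoxc6 differed by line. Hoxc4 was at 6.18 ± 0.484 in MCA-943 (n = 4) and at 0.769 ± 0.231 in MCA-970 (n = 6), with 1.94 ± 0.108 in MCA-948, 1.16 ± 0.453 in MCA-969 and 1.82 ± 0.176 in MCA-972. Hoxc4 was higher in MCA-943 than in each of the other lines, by 1.67 (MCA-948) to 3.01 (MCA-970) on the log2 scale (SE 0.20 and 0.23; adjusted p = 2.7e-08 and 4.4e-12). Hoxc5 was also highest in MCA-943, but was called in only 2 of the 10 pairs (MCA-943 over MCA-969 and over MCA-970), with 2.95 ± 0.190 in MCA-943, 1.54 ± 0.166 in MCA-948, 1.01 ± 0.453 in MCA-969, 1.30 ± 0.175 in MCA-970 and 1.55 ± 0.134 in MCA-972. Hoxc8, which patterns the spine of the chest and the neurons of the arm, was at 23 ± 1.58 in MCA-943 and 18 ± 0.994 in MCA-972, above the 8.76 ± 1.12 of MCA-948, 5.26 ± 0.686 of MCA-970 and 2.89 ± 1.15 of MCA-969. The difference between MCA-943 and MCA-972 in Hoxc8 did not pass the test (log2 fold change 0.35, SE 0.23; adjusted p = 0.195). Hoxc9, a gene of the posterior chest, was at 21.8 ± 0.972 in MCA-943, 14.6 ± 1.35 in MCA-970, 10.4 ± 1.56 in MCA-948, 8.06 ± 0.287 in MCA-972 and 2.99 ± 1.96 in MCA-969. Hoxc9 was lower in MCA-969 than in each other line, with the smallest log2 difference against MCA-972 (-1.43, SE 0.27; adjusted p = 7.7e-05), and MCA-943 exceeded MCA-969 by 2.86 (SE 0.27; adjusted p = 5.2e-10).

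Hoxc10, a gene of the lumbar region and the hindlimb, had the widest range between line means in level, from 0.242 to 46.5. Its level was 33.7 to 62.8 in the 8 tumors of MCA-948 and 31.3 to 36.3 in the 6 of MCA-970. It was 2.02, 2.22, 2.26 and 2.21 in MCA-943, 0.567 to 13.3 in MCA-969, and 0.205, 0.0429, 0.474 and 0.248 in MCA-972. The MCA-972 tumors were below all others, and only MCA-943 and MCA-969, and MCA-948 and MCA-970, overlapped. Hoxc10 was higher in MCA-948 than in MCA-972 by 7.55 on the log2 scale (SE 0.61; edgeR adjusted p = 1.7e-11), and the difference of 0.47 between MCA-948 and MCA-970 did not pass the test (SE 0.33; adjusted p = 0.21). The next gene, Hoxc11, was at 1.67 ± 0.232 in MCA-970 (98 to 170 counts) and had 0 to 13 counts in the tumors of the other lines. In MCA-948 against MCA-970, the pair in which Hoxc10 did not pass the test, Hoxc11 fell by 4.26 on the log2 scale (SE 0.33). Hoxc11 passed the filter on low counts through MCA-970, where it was high, so no p-value is given for this difference. By the rule of a level of at least 1 in every tumor, the last expressed gene of HoxC was Hoxc9 in MCA-969 and MCA-972, Hoxc10 in MCA-943 and MCA-948, and Hoxc11 in MCA-970. In MCA-969, Hoxc10 had a mean of 5.34 and missed the rule through W-2D alone (0.567), with a lowest level of 2.58 when W-1D and W-2D were left out.

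The summed level of HoxD ran from 7.84 ± 0.877 in MCA-972 to 19.2 ± 1.48 in MCA-948 and was led by Hoxd8, which acts in the trunk. Hoxd8 was at 14.3 ± 0.482 in MCA-948 (n = 8), 9.15 ± 0.561 in MCA-943 (n = 4), 7.60 ± 1.42 in MCA-969 (n = 8), 6.79 ± 0.660 in MCA-972 (n = 4) and 6.53 ± 0.586 in MCA-970 (SD, n = 6). It was higher in MCA-948 than in MCA-970 by 1.13 (SE 0.10; adjusted p = 2.2e-11) and than in MCA-972 by 1.07 on the log2 scale (SE 0.11; adjusted p = 1.6e-09), and the other 8 pairs were not called. Hoxd9 followed at 3.96 ± 0.987 in MCA-948, 2.06 ± 0.439 in MCA-943, 1.33 ± 0.333 in MCA-970, 1.09 ± 0.528 in MCA-969 and 0.747 ± 0.151 in MCA-972. Hoxd10 was 0.656 ± 0.210 in MCA-948 and at most 0.318 on average elsewhere. On the 3′ side, Hoxd4 was at 0.661 ± 0.203 in MCA-969 and at 0.114 to 0.236 on average in the other lines. It was called higher in MCA-969 than in each of them, by 1.48 (MCA-948) to 2.51 (MCA-970) on the log2 scale (SE 0.25 and 0.30; adjusted p = 8.5e-06 and 3.3e-08). Of the exon bases of Hoxd4 47.7% are free of overlap with other annotated genes, and the strand setting of the counting is not stated.

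The position along a cluster was also summed up as the mean paralog number of its transcripts, weighted by level. This is a description with no test. In HoxA it was 5.85 ± 0.167 in MCA-943 (SD, n = 4), 6.85 ± 0.155 in MCA-969 (n = 8) and 7.88 ± 0.0876 in MCA-970 (n = 6). In HoxB it was 5.92 ± 0.0758 in MCA-948, 6.14 ± 0.229 in MCA-969 and 6.81 ± 0.0647 in MCA-970. In HoxC it was 8.44 ± 0.0758 in MCA-970 and 8.39 ± 0.134 in MCA-948, and 7.0 ± 0.404, 7.20 ± 0.0391 and 7.22 ± 0.0374 in MCA-969, MCA-972 and MCA-943. HoxD gave 7.82 to 8.20 in all lines. MCA-970 thus had the highest mean in HoxA, HoxB and HoxC, in HoxC by less than the spread between the MCA-948 tumors, and it was the only line that expressed Hoxc11. Hoxb9 met the rule in MCA-970 alone, but in MCA-969 (mean 5.99) it missed it only through W-2D (0.661), with a lowest level of 3.54 without W-1D and W-2D. All 5 primary tumors were induced in the same flank, so the lines do not differ in the stated site of origin.

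Neighboring genes shared their state more often than paralogs did, as a count with no test. Over 35 pairs of adjacent Hox genes in 5 lines, both genes were expressed or both were not in 136 of 175 cases (77.7%). Over 42 pairs of paralogs in different clusters the same held in 135 of 210 (64.3%). Among pairs with at least 1 gene expressed somewhere, the shares were 70.0% (91 of 130) and 50.0% (75 of 150). Hoxd4 and Hoxd8 differed in state in all 5 lines, while Hoxa9 and Hoxa10, Hoxb6 and Hoxb7, and Hoxc8 and Hoxc9 agreed in all 5.

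Tests across all genes gave many calls between lines. Calls needed a log2 fold change of 1 or more in size and an adjusted p (Benjamini-Hochberg, over all genes tested) under 0.05. Of the 39 Hox genes 30 passed the filter on low counts, and the 9 others were Hoxa13, Hoxb1, Hoxb13, Hoxc12, Hoxc13, Hoxd1, Hoxd11, Hoxd12 and Hoxd13. Between MCA-943 and MCA-948 21 of the 30 were called, where 29.0% of all genes tested were (10 higher in MCA-943, against 17.7%, and 11 lower, against 11.3%). MCA-943 and MCA-970 differed in 20 (27.3%), with 6 higher (12.6%) and 14 lower (14.8%) in MCA-943. MCA-943 and MCA-972 differed in 11 (25.6%), with 8 higher (12.2%) and 3 lower (13.4%) in MCA-943. The 22 calls between MCA-943 and MCA-969 (27.0%) held 4 higher (12.1%) and 18 lower (14.9%) in MCA-943. MCA-969 exceeded MCA-948 in 13 genes (16.8%) and fell short in 6 (3.91%), 19 in all (20.8%). Against MCA-970 it was higher in 5 (10.7%) and lower in 5 (10.7%), 10 in all (21.4%), and against MCA-972 higher in 20 (10.3%) and lower in 2 (10.3%), 22 in all (20.6%). MCA-948 was higher than MCA-970 in 6 (9.64%) and lower in 14 (19.8%), 20 in all (29.4%), and against MCA-972 higher in 14 (8.27%) and lower in 5 (18.5%), 19 in all (26.8%). MCA-970 was higher than MCA-972 in 18 (8.56%) and lower in 2 (9.01%), 20 in all (17.6%). Calls in at least 1 pair were made for 29 of the 30 Hox genes and for 59.0% of all genes, and all 30 differed among the 5 lines at an adjusted p under 0.05, as 94.1% of all genes did.

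**Figure D4:**
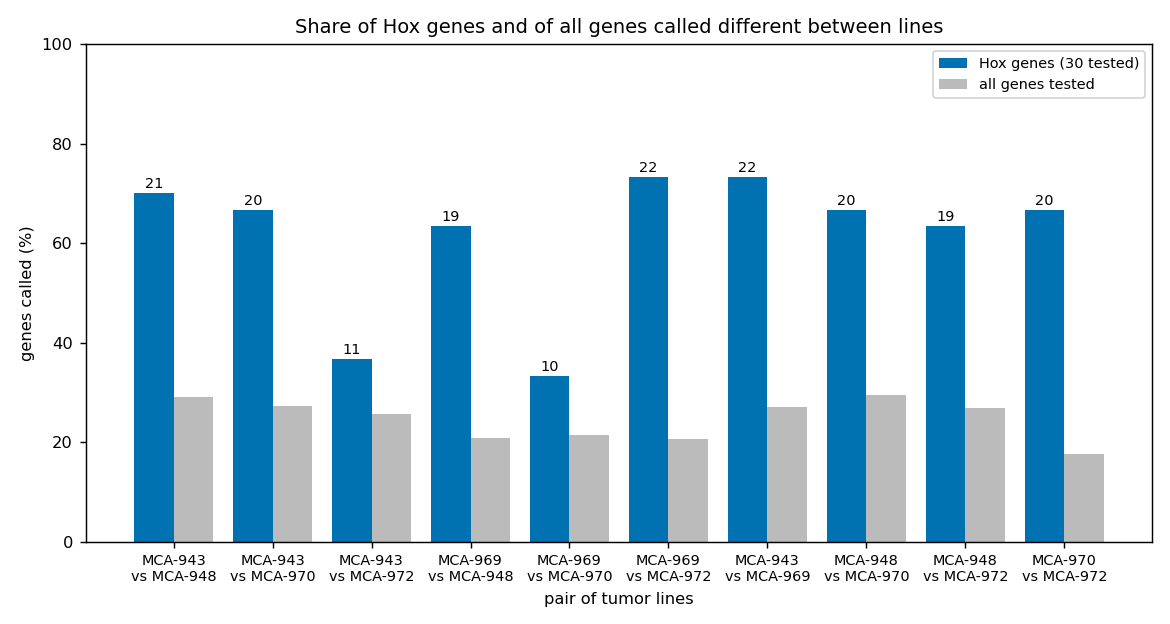
Percent of the 30 tested Hox genes (blue, with the number called) and of all 16862 genes tested (grey) called different in each pair of lines. The Hox share runs from 10 genes between MCA-969 and MCA-970 to 22 genes in each of 2 pairs with MCA-969.

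The filter bears on these counts, because a gene that passed only through a line where it was high had to differ from a line where it was off. The same limit holds for p-values of single genes against a line where they were off, above and in the lists below. Of 300 tests of Hox genes over the 10 pairs, 163 were of genes with over 3 counts in every tumor of both lines, and 73 of these were called (44.8%, against 19.2% of the tests of all genes detected in this way). In the other 137 tests, with 3 or fewer counts in some tumor, 111 were called (81%, against 54.8% for all genes). With detection in both lines, the calls were 5 of 10 between MCA-943 and MCA-948 (23.8% of all genes) and 7 of 27 between MCA-969 and MCA-970 (25.9%, against 16.4% of all genes). Lines that share 1 partner are not independent comparisons. Runs of consecutive library numbers, which the labels do not call a batch, overlap the lines in part. With the run as a covariate 10 to 22 of the 30 Hox genes were called per pair, where 11.9% to 29.8% of all genes were. Within run 1 MCA-969 and MCA-972 differed in 21 of 29 Hox genes tested (19.8% of all genes). Within run 3 MCA-943 and MCA-948 differed in 20 of 26 (29.6%). Within run 2 MCA-948 and MCA-970 differed in 18 of 28 (23.6%) and MCA-969 and MCA-970 in 7 of 29 (17.4%). In the same run MCA-969 and MCA-948, with 2 tumors each, differed in 2 of 28, Hoxa9 and Hoxa10, where 0.648% of all genes were called.

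The titles carry the letter W or a, whose meaning is not stated in the sources used here, although the design text names wild-type and NK cell deficient hosts. Over 26 tumors of the 4 lines with both letters, 0 of 30 Hox genes were called between the letters by edgeR, where 0.230% of all genes tested were (0.205% higher and 0.0242% lower under W). None had an unadjusted p under 0.05, and the lowest adjusted p of a Hox gene was 0.837. DESeq2 and limma-voom also called 0. The largest change was -0.33 on the log2 scale for Hoxa3 (SE 0.26; adjusted p = 0.886).

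The spread among tumors of 1 line was read as the ratio of the highest to the lowest tumor. Its median over the genes expressed in the line was 1.17 in MCA-972, 1.18 in MCA-943, 1.31 in MCA-970, 1.43 in MCA-948 and 1.65 in MCA-969. This ratio grows with the number of tumors, which was 4, 4, 6, 8 and 8 in these lines. The median SD as a percent of the mean was 7.39%, 7.28%, 10.6%, 11.3% and 17.7% in the same order. The rule for expression leaves out genes that fell below 1 in some tumor, and over the 21 genes with a mean of at least 1 in MCA-969 the median was 1.98. MCA-969 held the widest spreads, in Hoxc10, Hoxb9, Hoxc9, Hoxd9 (4.37-fold), Hoxc5 (3.93-fold) and Hoxc4 (3.09-fold). Hoxb9 was 13.2 in W-1D, 0.661 in W-2D, 6.89 in W-2G, 3.61 in W-R, 7.05 in a-1D, 8.0 in a-1G, 4.98 in a-2D and 3.54 in a-R. Hoxc10 was 13.3, 0.567, 6.56, 2.61, 6.08, 6.90, 4.17 and 2.58 in the same tumors. W-1D was highest and W-2D lowest in both genes, and the order of the tumors between them was nearly the same, although the genes lie on different chromosomes. Hoxc9 (7.06 in W-1D, 1.15 in W-2D) and Hoxc8 (4.03 and 1.42) ran along, while Hoxb4 stayed between 2.89 and 4.47.

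Over the 8 tumors Hoxb9 and Hoxc10 had a Pearson r of 0.994 (two-sided exact permutation p = 7.44e-05, adjusted p = 0.0156 over 210 pairs among the Hox genes with a mean level of at least 1 in MCA-969) and a Spearman rho of 0.976 (exact permutation p = 0.000397, adjusted p = 0.0139), on log2 CPM. Without the 2 tumors farthest from the median, W-1D and W-2D, r was again 0.994. The same 2 tumors carry a sensitivity label opposite to that of their line and belong to library run 2, so r over the 6 tumors of run 1 is also 0.994 (exact permutation p = 0.00417, unadjusted). In MCA-969 21 of the 210 pairs had an adjusted p under 0.05, all with a positive r, and in MCA-948 0 of 91 pairs did. The median r over these pairs was 0.441 in MCA-969 and 0.0473 in MCA-948. No such share was taken over pairs of all genes, so these counts are not read as a trait of the Hox genes. The pair of Hoxb9 and Hoxc10 was picked after its values were seen. W-2D also had the lowest summed mesenchymal markers (9481 CPM, against 13525 to 16766 in the other 7) and the highest sum of mesothelial and simple epithelial markers (1249 CPM, against 436 in W-1D and 546 to 714 in the other 6). The part of such a difference in cell makeup in the Hox levels was not tested.

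**Figure D5:**
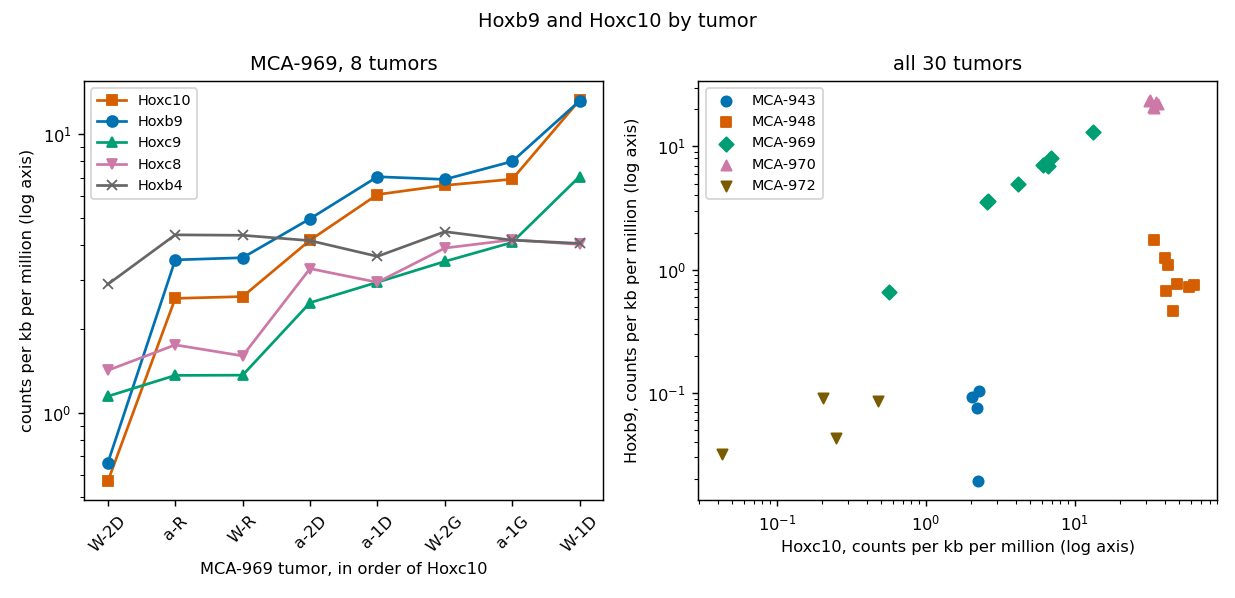
Left, levels of 5 Hox genes (log axis, CPM per kilobase) in the 8 MCA-969 tumors, ordered by Hoxc10; right, Hoxb9 against Hoxc10 in all 30 tumors (both axes log), with a symbol for each line. In MCA-969 both genes run from under 1 in W-2D to over 13 in W-1D, while Hoxb4 stays level.

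Genes that work with the Hox proteins or regulate the clusters were read from lists. Over the 10 pairs of lines 24.5% of all tests were called, and 59.0% of all genes tested were called in at least 1 pair. Of 9 cofactors 6 were called in at least 1 pair, in 27 of 90 tests. Pbx2 and Pbx3 were called in no pair. Of 16 Polycomb genes 7 were called in at least 1 pair, in 12.5% of tests, below the background. Bmi1 and Phc2, of the complex that compacts chromatin, were called in none. Cbx6, a reader of histone methylation, was at 51 ± 1.73 in MCA-943 and 16.4 ± 1.34 in MCA-970 (log2 fold change 1.63, SE 0.13; adjusted p = 1.07e-11), and Suz12, a core subunit of the complex that methylates histone H3, was at 40.9 ± 4.73 in MCA-948 against 14.7 ± 0.871 in MCA-943 (log2 fold change -1.48 in MCA-943, SE 0.08; adjusted p = 2.44e-15). Of 10 Trithorax genes and related activators 3 were called, in 5.0% of tests. Psip1, which ties Menin to chromatin, was called in none, and Wdr5, a core subunit of the methylating complexes, was at 30.8 ± 1.56 in MCA-948 and 15.3 ± 1.04 in MCA-972 (log2 fold change 1.01, SE 0.08; adjusted p = 5.11e-12).

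Genes of the signals that set Hox patterns in the embryo were read as RNA, and the signals themselves were not measured. Of 13 genes of retinoic acid, Cdx and Gdf11 signaling 8 were tested, and 6 were called in at least 1 pair (59.0% of all genes). Of their tests 46.25% were called, against 24.5% of the tests of all genes. Cyp26b1, an enzyme that degrades retinoic acid, was at 0.946 ± 0.242 CPM in MCA-943, 3.03 ± 1.74 in MCA-948, 17.7 ± 7.45 in MCA-969, 40.0 ± 19 in MCA-970 and 87.6 ± 16 in MCA-972 (SD). It was called in all 10 pairs, with the largest difference between MCA-943 and MCA-972 (log2 fold change -6.52, SE 0.57; adjusted p = 1.4e-10). Rarg, a retinoic acid receptor, was at 41.3 ± 2.88 in MCA-943 and 14.1 ± 3.31 in MCA-972 (level). Cdx1, Cdx2 and Cdx4, which switch on 5′ Hox genes in the embryo, did not pass the filter, and Rara and Gdf11 were called in no pair.

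Of 46 other annotated genes inside the clusters 14 were tested, and all 14 were called in at least 1 pair (59.0% of all genes tested). Of their tests 61.4% were called, against 61.3% of those of the Hox genes and 24.5% of those of all genes. Gm53, a noncoding gene between Hoxb13 and Hoxb9, was at 10.8 ± 1.10 CPM in MCA-970, 2.49 ± 1.72 CPM in MCA-969 and at most 0.102 CPM on average in the other lines. In MCA-948 against MCA-970 Gm53 fell by 8.08 on the log2 scale (SE 0.55). It passed the filter on low counts through lines where it was high, so no p-value is given for this difference. Hoxb3os, which lies opposite Hoxb2 and Hoxb3, was at 6.72 ± 0.979 CPM in MCA-969 and 0.0339 ± 0.0462 CPM in MCA-943. Hotair, a noncoding gene of the 5′ side of HoxC, did not pass the filter. Of the 8 nearest coding genes outside the clusters 5 were tested, 9 of 50 tests were called, and Mtx2, beside HoxD, was called in none. Skap2, beside HoxA, was called in 4 pairs.

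The clusters also hold the miRNAs miR-10 and miR-196, whose mature sequences are shown because both families have known Hox targets and lie among the genes described above. The seed (bases 2 to 8) is in capitals (RefSeq, GRCm38.p6).
mmu-miR-10a-5p: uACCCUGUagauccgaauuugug
mmu-miR-10b-5p: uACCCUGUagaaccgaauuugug
mmu-miR-196a-5p: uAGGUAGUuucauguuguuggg
mmu-miR-196b-5p: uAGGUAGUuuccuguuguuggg
The pair of miR-10 shares 1 seed and the pair of miR-196 another. Mature levels were not measured, as the libraries hold longer RNA. The hairpin gene Mir196a-1, which lies in HoxB on chr11 between Hoxb9 and Hoxb13, was counted at 0.565 ± 0.151 CPM in MCA-970, 0.132 ± 0.121 CPM in MCA-969 and at most 0.00652 CPM on average in the other lines. In MCA-948 against MCA-970 Mir196a-1 fell by 6.39 on the log2 scale (SE 0.66). It passed the filter on low counts through lines where it was higher, so no p-value is given for this difference. Counts on a hairpin can come from longer transcripts that cross it.

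Markers of the tumor cells and of host cells were read in all lines. The summed level of 8 mesenchymal genes (among them Col1a1, Vim and Pdgfrb) was 9481 to 61958 CPM, and none was missing from any line. Leukocyte markers summed to 2.26 to 72.9 CPM, with Cd3e at 3 counts or fewer in every tumor of MCA-969 and MCA-972. Endothelial markers summed to 15.7 to 454 CPM and pericyte markers to 44.1 to 271 CPM, with the highest endothelial sums in MCA-970 (251 to 454 CPM, against 15.7 to 313 in the other lines). Mesothelial and simple epithelial markers were highest in MCA-969 (436 to 1249 CPM, against 0.782 to 160 in the other lines), where Upk3b was at 3 counts or fewer. The part of these cells in the differences between lines was not tested. Leaving out W-1D and W-2D of MCA-969, whose sensitivity labels go against their line, gave the same count of Hox calls in 9 of the 10 pairs and 20 in place of 22 between MCA-943 and MCA-969, and Hoxa7 again stood alone. The share of all genes called was not taken without W-1D and W-2D. MCA-969 then had 18 expressed Hox genes in place of 16.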

How the data were processed

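RNA of 30 tumors from 5 lines was measured by RNA-seq with unique molecular identifiers. The deposited values are counts per gene, made by the authors with STAR 2.5.3a and featureCounts 1.5.2 on GRCm38, versions per the submitters' processing notes, and a deposited exon length per gene. Hematopoietic cells had been removed with CD45 beads. Tumors were grouped by line from the labels. Counts were fitted with edgeR 4.0.16 (R 4.3.3; TMM scaling, filterByExpr by line, quasi-likelihood test, robust, 1 mean per line), with p-values adjusted by the Benjamini-Hochberg method over all 16862 genes tested and a call at 0.05 and an absolute log2 fold change of 1. DESeq2 1.42.0 and limma 3.58.1 (voom), other filters, thresholds, the library run, title codes as a replicate block and leaving out tumors were tried as alternatives. The scripts were tested on simulated data. Each SE printed with a fold change is the absolute log2 fold change divided by the square root of the F statistic. It was derived from the test and not fitted by the model. Levels were divided by the deposited length. The floor of 3 counts covers counting error only, while the SDs and the tests include the spread between tumors of a line. Of the 39 Hox genes, all with a value to report are described; of each other list at most 4 genes, those with the largest range between line means, were to be named, and Hoxb3os, Hotair and the Cdx genes were added after their values were seen. The members and lists were chosen with earlier results of these data known, and within the Hox family the symbol alone fixed the members. Proteins are not used here, and some genes are not reported here.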

Additional observations from a re-analysis of the deposited data

Results flagged for a closer look

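In 66 groups of 4 to 8 tumors, 1 for each expressed Hox gene and line, 6 held a tumor far from the others. The nominal rate of this flag is about 1 in 20 groups. The groups share tumors and are not independent, and the share over all expressed genes was not taken. No excess is therefore read from this count. In MCA-969, Hoxa10 was lowest in W-R (2.87, next 3.82), and W-2D was lowest in Hoxb4 (2.89, next 3.65) and Hoxd8 (4.85, next 6.99). In MCA-948, Hoxc5 was lowest in a-2G (1.18, next 1.43). In MCA-970, Hoxc6 was highest in a-1D (28.1, next 23.1). In MCA-972, Hoxc8 was highest in 2G (19.5, next 17.7). All are levels in CPM per kilobase.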

How the results depend on the processing

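No direction was reversed under any alternative run. Hox genes called between MCA-969 and MCA-970 (10) were 6 with a mean of at least 1 CPM, 19 with no fold threshold and 6 with a log2 threshold of 2. Between MCA-948 and MCA-970 (20) they were 13 and, at that threshold, 12, and between MCA-943 and MCA-969 (22) 14. Only tumors of run 2 gave 2 calls between MCA-969 and MCA-948 (19), from fewer samples, where 0.648% of all genes were called. Leaving out each tumor gave 1 to 2 genes higher in all 6 comparisons. The title codes did not pair the tumors (8 of 29 same-code pairs correlated above 0.1), and with the replicate block the counts were 11 to 21 per pair. Among these alternatives the share of all genes called was taken for the library run only. Shifts in counts under the other settings are not read as a result about the Hox genes. When a level of 2 was asked for, 9 genes were expressed in MCA-948. The mean paralog number without division by length was 7.35 and 8.44 in HoxA of MCA-969 and MCA-970, 5.50, 5.73 and 6.60 in HoxB of MCA-948, MCA-969 and MCA-970, 8.19 and 8.26 in HoxC of MCA-948 and MCA-970, and 8.04, 8.13 and 8.0 in HoxD of MCA-943, MCA-948 and MCA-972. On exon bases free of overlap it was 5.69, 5.76 and 6.51 in HoxB of MCA-948, MCA-969 and MCA-970, and 7.99, 8.11, 7.5, 8.02 and 7.95 in HoxD of MCA-943, MCA-948, MCA-969, MCA-970 and MCA-972. The cause of these shifts other than the setting was not tested. Low counts limit the genes at 3 counts or fewer.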
